A study of Mus musculus with 16 samples.

Results

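The endoplasmic reticulum (ER) genes described here are 42 genes of the unfolded protein response (UPR), of protein folding in the ER, of ER-associated degradation and of the translocon, without HSP70, HSP90 or DNAJ genes. They were chosen by symbol, with earlier results of these data known, and all 42 were found among the 25905 genes of the authors' table. The table comes from RNA sequencing of retinas of wild type male C57BL/6 mice, labelled as 10 weeks old, from 2 groups. The authors give this as the age of the mice that were flown. Eyes were collected after the return to Earth, so the flight mice were older when sampled. Spaceflight mice (n = 8) had lived on the International Space Station, and ground control mice (n = 8) were kept on Earth in the same housing hardware. Each of the 16 libraries came from the retina of a right eye.

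The value used throughout is the mean normalized count of a gene, which is the authors' mean over all 16 libraries of both groups. Counts per library are deposited under laboratory codes that no label pairs with a mouse or a group. They were not used here, so spaceflight and ground control were not compared and no value carries an error. Depth per library is likewise not analysed here. In whole retina such a mean sums over all cell types, and fewer cells of a type and less RNA per cell cannot be told apart.

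Proteins that are secreted or inserted into membranes enter the ER through the Sec61 translocon and fold there with the help of chaperones and of enzymes that form disulfide bonds. Misfolded proteins are drawn back to the cytosol and degraded, and the sensors Atf6, Ern1 (IRE1) and Eif2ak3 (PERK) report an excess of them to the nucleus as the UPR. Photoreceptors renew the membranes of their outer segments throughout life, and the membrane proteins for this are made in the ER.

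Atf6 and the transcription factor made from Xbp1 act on a promoter sequence named the ER stress response element (ERSE), in which CCAAT and CCACG stand 9 bases apart. RefSeq promoters of assembly GRCm38.p6, each from 250 bases before to 50 bases after an annotated start, were found for 36 of the 42 genes, 3 of them under a newer symbol. Atf6, Derl1, Hyou1, Manf, Sec61a1 and Ssr2 had no entry. The ERSE was present, on either strand, in 7 of the 36 genes (19.4%), against 37 of all 27025 genes with a promoter (0.137%). Both the genes and the motifs searched here were chosen for a known part in the UPR or the ER. The shares given for the motifs are therefore a description and not a test. The 7 genes cover folding, disulfide formation and degradation, and their elements are printed because UPR transcription factors are known to act through this sequence. Each is written on the strand that reads CCAAT first, with 10 bases on either side, and capitals mark the fixed bases.
Calr (chr8:84847065-84847103, + strand): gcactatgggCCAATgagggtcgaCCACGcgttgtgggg
Derl3 (chr10:75893232-75893270, - strand): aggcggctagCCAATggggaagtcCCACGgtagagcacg
Canx (chr11:50325790-50325828, - strand): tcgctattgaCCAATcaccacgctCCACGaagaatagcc
Pdia6 (chr12:17266481-17266519, + strand): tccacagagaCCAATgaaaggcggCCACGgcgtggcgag
Ero1lb (chr13:12565672-12565710, - strand): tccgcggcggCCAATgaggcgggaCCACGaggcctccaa
Creld2 (chr15:88819510-88819548, - strand): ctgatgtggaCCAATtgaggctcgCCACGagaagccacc
Syvn1 (chr19:6046522-6046560, + strand): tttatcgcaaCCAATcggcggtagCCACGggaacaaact

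The elements began between 201 bases (Ero1lb) and 44 bases (Syvn1) before the annotated start, and all of them lay upstream of it. CCAAT came first along the gene's own strand in Canx, Pdia6 and Syvn1, and on the opposite strand in Calr, Creld2, Derl3 and Ero1lb. Either part of the element on its own was far more common. CCAAT alone was in 23 of the 36 genes (63.9%) against 41.1% of all genes, and CCACG alone was in 25 (69.4%) against 35.5%. Among genes with a mean normalized count of 10 or more, CCAAT was in 65.5% of the ER genes against 42.4% of all. CCACG was in 72.4% against 51.6% there, so its background share was higher among expressed genes. With a spacing of 6, 7, 8, 10, 11 or 12 bases in place of 9, the pair was found in between 6 and 18 of all genes, and in 0 of the 36 except P4hb, at a spacing of 6. Among the 30 other genes of the reference with the ERSE are Hspa5, Hsp90b1 and Dnajc3, which also encode ER chaperones or a cochaperone, and Alg12, a mannosyltransferase of the ER. These were picked from the 30 because they are ER genes. The rest were not sorted by function, so further ER genes may be among them. They include Calr4, whose symbol resembles that of Calr, and Olfr59, Esp15, Xlr3a, Zfp57, Adcy3 and Gm39859.

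A second form of the element, ERSE-II, has ATTGG and CCACG 1 base apart, where ATTGG is CCAAT read on the other strand. It was in 12 of all genes (0.0444%) and in 1 of the 36, Herpud1, which recruits ubiquitinated proteins to the degradation complex. The core of the UPR element, TGACGTG, was in 1 of the 36 (2.78%), Vcp, and in 2.22% of all genes. These 2 shares were close, so the Vcp site does not set the ER genes apart. These sites are shown in the same way.
Herpud1, ERSE-II (chr8:94386367-94386397, + strand): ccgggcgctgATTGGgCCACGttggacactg
Vcp, UPR element core (chr4:43000605-43000631, - strand): tgcggccaatTGACGTGgcgttactag

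**Figure D1:**
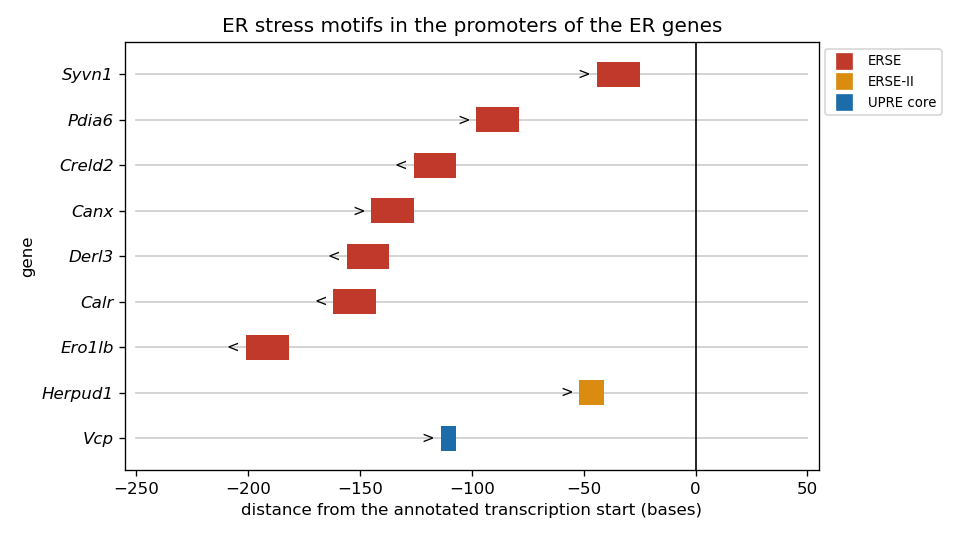
Position of the ERSE, ERSE-II and UPR element core (colored bars) in the promoters of the ER genes that hold one, in bases from the annotated start (black line); the arrowhead beside a bar gives the strand on which the motif reads, right for the gene's own strand. All 9 sites lie upstream of the start, the farthest beginning at 201 bases (Ero1lb) and the nearest at 44 (Syvn1).

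A match of letters does not show that a factor binds. In these retinas the ER genes with the ERSE were spread over the whole range of levels. Levels were compared between genes per kilobase of the longest transcript that GENCODE M21 pairs with a transcript of the count table. Of the genes with a promoter and 1 transcript in that table, 5 had the ERSE, with a median of 109 mean normalized counts per kilobase and a range from 4.28 (Derl3) to 1390 (Calr). The 23 without it had a median of 168 and a range from 21.4 to 804, so the ranges overlapped.

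As a set, the ER genes were well expressed in retina. Of the 42, 32 had a mean normalized count of at least 100 (76.2%), against 30.3% of all genes of the table, and the median gene stood above 79.3% of the genes with a count above 0. Their summed mean normalized counts made up 0.361% of the total over all genes. The remaining 10 genes fell below 100, and 7 of them below 10, where 52.2% of all genes lie.

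Of these 10, all but Derl3 and Sdf2l1 shared a feature that the choice of genes did not use. The authors counted reads per transcript, how the transcripts of a gene were joined into its mean is not given in the sources used here, and the count table names 1 transcript for 34 of the ER genes and 2 or 3 for the other 8. Of the 34, 32 were at 100 or above, with a median mean normalized count of 414 and a range from 5.65 (Derl3) to 3035 (Calr). The 8 with 2 or 3 transcripts all lay below 30, with a median of 2.01. They were Os9 (29.9), Sel1l (26.3), Ssr4 (6.66), Syvn1 (2.93), Mbtps1 (1.10), Sec61g (0.436), Ufd1l (0.0517) and Canx, which was listed at 0. Apart from Derl3, every gene with 1 transcript lay above all 8 of them.

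The same held over the whole table to a lesser degree. The 22086 genes with 1 transcript had a median mean normalized count of 12.9, and 34.0% of them reached 100. The 3794 genes with 2 or more had a median of 0.806, and 8.49% reached 100. Hspa5, the HSP70 of the ER and a widely used UPR marker, was listed at 0 with 2 transcripts.

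**Figure D2:**
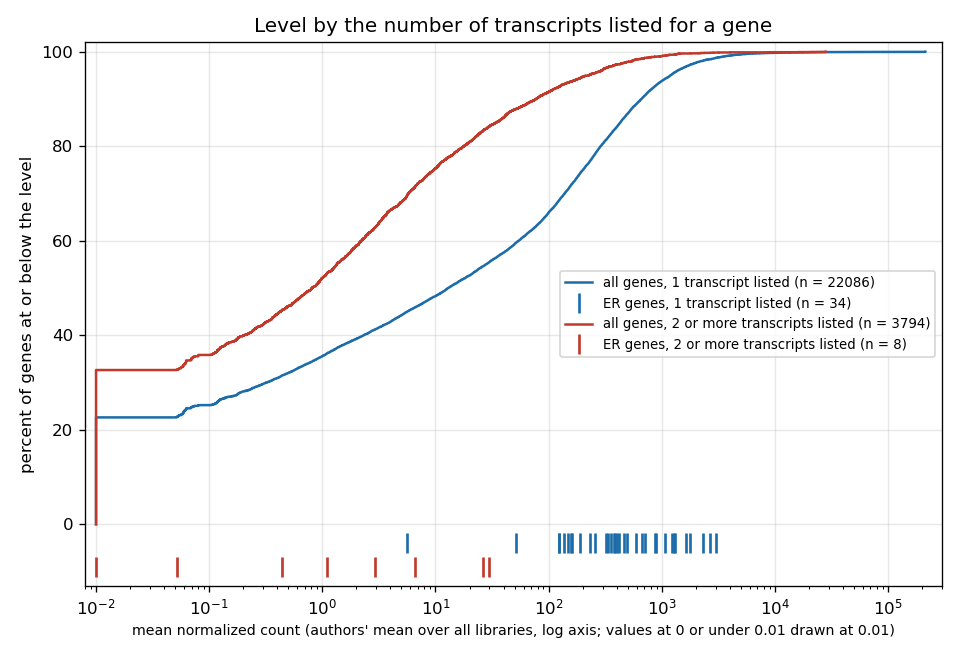
Cumulative share of genes (vertical axis, percent) by mean normalized count (horizontal log axis), for the 22086 genes with 1 transcript in the count table and the 3794 with 2 or more; ticks under the curves are the 34 and 8 ER genes of each kind. The ticks of the 8 lie between 0 and 29.9, and 32 of the 34 lie at or above 100.

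Transcripts of 1 gene differ in how much exon they have to themselves. All listed transcripts could be paired with distinct GENCODE transcripts for 5 of the 8 genes. The exon bases found in only 1 of the listed transcripts were 39 of 802 in Ssr4, 157 of 4344 in Mbtps1, 173 of 2629 in Os9, 756 of 6300 in Sel1l and 709 of 3666 in Syvn1. The share was thus at most 19.3% (Syvn1). Over all genes with 2 or more transcripts, each of them paired, the 1172 with a share under 20% had a median mean normalized count of 0.692, and 1.96% reached 100. The 1230 with a larger share had a median of 6.96, and 18.6% reached 100. The limit of 20% was chosen after the values were seen. Per kilobase of the bases found in only 1 transcript, the 5 genes ran widely. Os9 had 173 mean normalized counts, Ssr4 171, Sel1l 34.8, Mbtps1 7.0 and Syvn1 4.13. The median among the 34 genes with 1 transcript was 163 per kilobase of transcript. The value of Ssr4 rests on only 39 bases and a mean normalized count of 6.66. Whether the counted reads came from these bases alone was not tested. How reads in shared exons were treated is not given in the sources used here, and its part in these levels was not tested. For these 8 genes the values given are those of the table, and how far they reflect expression was not tested.

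Among genes of the ER outside the 42, a list of 35 of which 34 were found, the number of transcripts did not separate the levels in this way. All 31 genes with 1 transcript were at 129 or above, with a median mean normalized count of 519, and 2 of the 3 genes with 2 transcripts lay within their range. Of the 3, Fkbp2, a prolyl isomerase, was at 0.659, with 14.2% of its exon bases in only 1 transcript. Lman1, a cargo receptor for export from the ER, was at 548 with 24.1%, and Dad1, a subunit of the oligosaccharyltransferase, was at 310 with 88.4%.

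The order of the levels below is per kilobase of transcript, and neighbours in it could not be tested for a difference. Among the UPR sensors and effectors, Xbp1 was highest with 317 mean normalized counts per kilobase. Its mRNA is spliced by Ern1 on UPR activation, and a count per gene does not tell the spliced from the unspliced form. Atf6 had 169 and its relative Atf6b 158, Eif2ak3 had 85.7 and Ern1 had 36.9. The mean normalized counts themselves ran from 1.10 (Mbtps1) to 1226 (Atf6), and 6 of the 7 genes reached 100. The site-2 protease Mbtps2, which releases the active part of Atf6, had 39.7, and the site-1 protease Mbtps1, which cuts before it, had 0.253 and is among the genes with 2 transcripts.

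Of the chaperones, Calr (calreticulin), a lectin that holds calcium and glycoproteins in the ER, had 1390 mean normalized counts per kilobase, the highest level of all 42. The membrane-bound lectin of the same cycle, Canx (calnexin), was the one listed at 0, with 3 transcripts. Hyou1, a nucleotide exchange factor of Hspa5, had 198. The secreted ER stress proteins Manf and Creld2 had 143 and 109, and Sdf2l1, which works with Hspa5 and its cochaperones, had 46.6. In mean normalized count Calr had 3035, Hyou1 878, Manf 321, Creld2 148 and Sdf2l1 51.6, so Calr was also the highest of the 42 before length was taken into account.

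All 7 disulfide isomerases and oxidases had 1 transcript in the count table and were above 100 in mean normalized count. Pdia3, the isomerase that acts with Calr and Canx on glycoproteins, was highest with 597 per kilobase. P4hb, the classic protein disulfide isomerase, had 455, Pdia6 328, Pdia4 246 and Pdia5 130. Of the oxidases that pass oxidizing power to them, Ero1l had 85.8 and Ero1lb 37.2. All 5 isomerases were above both oxidases. In mean normalized count the 7 genes ran from 158 (Ero1lb) to 1654 (Pdia3).

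In ER-associated degradation, Vcp, the ATPase that pulls substrates out of the membrane, had 804 mean normalized counts per kilobase, and its cofactor Nploc4 had 116. The other cofactor, Ufd1l, which acts in a complex with Nploc4, had 0.0259 and has 2 transcripts. Herpud1 had 251. The mannose-trimming enzymes or lectins that select glycoproteins were Edem3 with 168, Edem2 with 70.0 and Edem1 with 21.4. The derlins, which take part in moving substrates across the membrane, were Derl1 with 111, Derl2 with 37.0 and Derl3 with 4.28. Derl3 had 1 transcript in the count table and was the lowest of those 34 genes. The ubiquitin ligase Syvn1 (0.845), its partner Sel1l (4.18) and the lectin Os9 (11.4) all belong to the genes with 2 transcripts. In mean normalized count 8 of the 13 degradation genes reached 100, from Edem1 with 124 to Vcp with 2667.

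Of the translocon genes, Sec62 had 584 mean normalized counts per kilobase and its partner Sec63 had 214. The channel subunits were Sec61b with 220, Sec61a1 with 105 and Sec61g with 0.560, the last with 3 transcripts. The translocon-associated proteins were Ssr2 with 354, Ssr3 with 299, Ssr1 with 190 and Ssr4 with 8.32, the last with 2 transcripts. In mean normalized count 7 of the 9 genes reached 100, from Sec61b with 124 to Sec62 with 2316. Within both the Sec61 channel and the translocon-associated proteins, the lowest subunit was the one with more than 1 transcript.

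**Figure D3:**
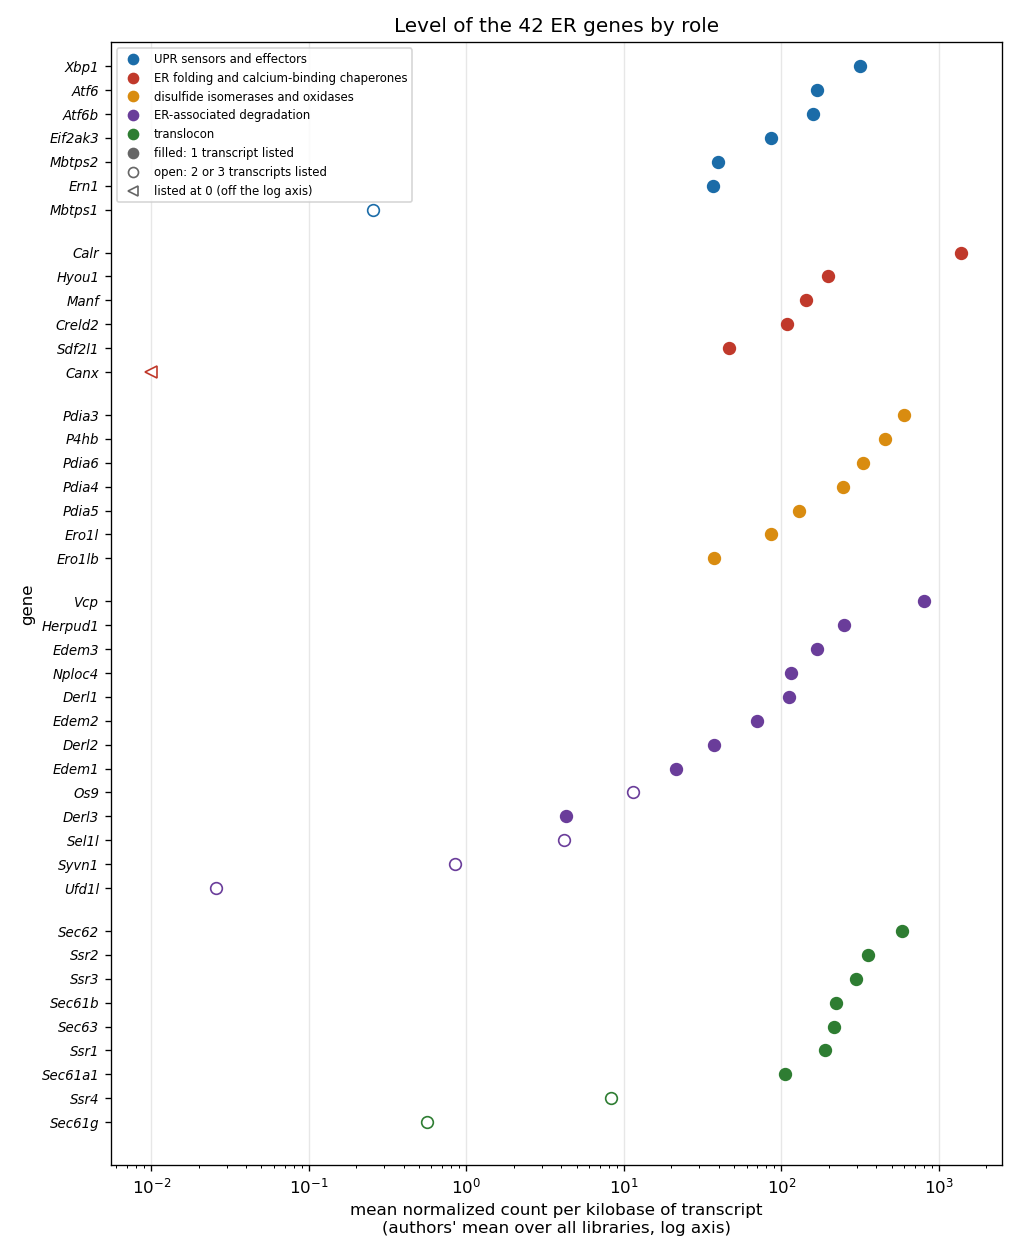
Mean normalized count per kilobase of transcript (log axis, the authors' mean over all libraries) of the 42 ER genes, colored by role; filled circles are genes with 1 transcript in the count table, open symbols genes with 2 or 3, and the open triangle at the left edge is Canx, listed at 0. Calr is highest at 1390, and the 8 open symbols lie below every filled one except that of Derl3.

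By role, and over the genes with 1 transcript only, the median level per kilobase was 246 for the 7 isomerases and oxidases, 220 for 7 translocon genes, 143 for 5 chaperones, 122 for 6 sensors and effectors and 111 for 9 degradation genes. The ranges of the 5 roles overlapped. Over all 34 the median was 163, against 20.2 for the 16702 genes of the table with 1 transcript and a length. In the count table reads may also be shared with neighbouring genes: on GRCm38, 9 of the 42 have exon bases that a gene on the opposite strand also covers, up to 549 of 3172 in Sec61a1 and 509 of 3967 in Sec62, and 2 (Manf and Pdia4) have 14 each in common with a gene on the same strand. Whether strand was used in counting is not given in the sources used here.

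Markers of the labelled tissue were present. Of the rod genes, Nrl (2 transcripts) was at 88.9 in mean normalized count, Nr2e3 at 3390, Cnga1 at 8658 and Pde6b at 13375. The 5 cone genes ran from 537 to 2800. The 8 inner retina genes found ran from 1.39 (Rlbp1, 2 transcripts) to 17455 (Glul). Genes listed as markers of neighbouring tissues were counted too. The 5 genes of the pigment epithelium ran from 2.72 to 540. The 5 lens genes ran from 45.8 (Crygd) to 898 (Cryaa), and 2 of them reached 100. Whether these reads came from neighbouring tissue or from cells of the retina was not tested. The 3 blood genes ran from 0 (Alas2, 2 transcripts) to 10.7 (Hbb-b1, 1 transcript). Of 3 genes of plasma cells and other secretory cells, Igj was at 99.7. Prss1 (1 transcript) and Ins2 (3 transcripts) were listed at 0. How far the values of genes with 2 or 3 transcripts reflect expression was not tested here either. How much of the ER transcripts comes from each cell type was not tested.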

How the data were processed

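The authors made stranded libraries, trimmed the reads (Trimmomatic), mapped them with TopHat2 to the mouse assembly mm9 (NCBI) and counted them per transcript with HTSeq. The signal they deposited is a gene's mean count after scaling by size factors, over the 16 libraries (DESeq2 1.22.2 in R 3.5.1 by the submitters' processing notes). The other columns of that table and the separate table of genes past their threshold hold the authors' own fold changes and p-values, and were not used. The 2 deposited count tables have 32 columns of values with laboratory codes, which were not used, and only the names of their transcripts were read. Hence the planned test of spaceflight against ground control was not run.

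Computed here, in Python 3.11.15 with pandas 2.3.3 and numpy 2.4.6, were ranks, levels per kilobase (lengths from GENCODE M21 on GRCm38, not the build of the files, found for 19855 genes), exon bases in only 1 listed transcript, and motif matches on both strands. The motif search was tested on simulated promoters. The members and lists were chosen with earlier results of these data known. All 42 members are named with their values. Genes of other lists are named where they are the lowest or highest or differ in their number of transcripts. Hspa5, and the other genes with the ERSE, were named after their values were seen. The planned look at protein ends and 1 marker gene are not reported here.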

Additional observations from a re-analysis of the deposited data

How the results depend on the processing

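Ranked among genes with a mean normalized count of at least 10 in place of those above 0, the median ER gene stood above 67.2% of genes. The median of the 34 ER genes with 1 transcript stood above 80.0% of the genes with 1 transcript and a count above 0. This alternative and the other spacings were chosen after seeing the data. The median level per kilobase was 113 for all 42 genes, with the longest or the shortest transcript alike, and 163 for the 34 genes with 1 transcript. The share of all genes with the UPR element core was 1.85% in the 250 bases upstream and 3.10% among genes at 10 or above. Of 16 alternatives, the 11 others were counted as unchanged. A share of ERSE, ERSE-II or the UPR element core counted so if it lay within the 95% Wilson interval of the main share. The median length-scaled level counted so if it was the same. The interval is wide for so few ER genes, and the alternatives reuse the same genes, so it does not measure stability. With ERSE genes limited to a level of 10 or more, Canx, Derl3 and Syvn1 dropped out. The share of ER genes with the ERSE was then 13.8% in place of 19.4%. The share of all genes with ERSE-II was 0.0756% there, against 0.0444%. No paired analysis was possible because the columns of the count tables carry no replicate number, and other tools, size factors, filters and thresholds for the test between groups were not run. The depth per library was not analysed here, so no limit of detection is given.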
